A study of Rattus norvegicus with 22 samples.

Results

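The genes described here are 10 genes of the digestive enzymes of the pancreas, measured in liver samples of rats: Prss1, Ctrb1, Cela1, Cela2a and Cpb1 (proteases), Pnlip, Clps, Pla2g1b and Cel (fat digestion) and Amy2a3 (starch digestion). They were chosen by symbol out of 10411 genes that have a probe set of their own on the array, and the choice was made because their values differed among the maternal livers. Their levels in those livers are therefore a description and carry no test. The 10 genes have 11 probe sets out of 15866. Each has 1 probe set annotated to it alone, and 1 further probe set is annotated to Amy2a3 and Amy1 together.

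The study took RNA from 22 samples of pregnant Wistar rats and their offspring, with 1 array per sample. Dams received vehicle (control), the calcium sensitiser EMD 82571 (named MSC1096199 in the series text) at 50 mg/kg/day (EMD50) or 150 mg/kg/day (EMD150), or retinoic acid at 12 mg/kg/day (RA). Daily dosing ran from gestational day 6 to day 11 or to day 17 by the protocols, and to day 17 by the series text. Maternal liver was taken on days 12 and 20, embryo liver and embryo bone on day 20 and whole embryo on day 12. Every combination of tissue and day holds 1 control, 1 EMD50, 1 EMD150 and 1 RA array, and both sets of day 12 hold a further RA array. Those RA samples carry the codes RA5 and RA56, and the RA samples of day 20 carry RA56, with no meaning given in the sources used here. Whether RNA of several animals was pooled, and which samples share a dam, is not given there either.

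The exocrine pancreas consists of acinar cells, which make digestive enzymes in very large amounts and store them in zymogen granules. Proteases are stored as inactive zymogens, and trypsin, itself made from trypsinogen in the gut, activates the others. In acinar cells the transcription factor complex PTF1, built around the protein Ptf1a, binds the promoters of many enzyme genes at a bipartite site made of an E-box and a TC-box. Hepatocytes are not known as a source of most of these enzymes, although rat liver makes an amylase of its own from Amy1.

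The promoters of 4 of the genes are shown: Ctrb1, Cela1 and Prss1 carry the letters of both such boxes before the start, and Amy2a3, the gene with the widest range over the maternal livers, has no CACCTG and its only TTTCCC after the start. Of the 10 genes, 8 have an entry in the RefSeq promoter table (build GRCr8), and Cela2a and Clps have none. Each window holds 250 bases before and 50 bases after the annotated start, written 5′ to 3′ on the gene's strand. Capitals mark CACCTG (an E-box) and TTTCCC (a TC-box core), or their reverse complements CAGGTG and GGGAAA. The windows are chr19:56566929-56567228 for Ctrb1, chr7:133665012-133665311 for Cela1 and chr2:204014363-204014662 for Amy2a3, all on the minus strand, and chr4:71330999-71331298 for Prss1 on the plus strand.
Ctrb1: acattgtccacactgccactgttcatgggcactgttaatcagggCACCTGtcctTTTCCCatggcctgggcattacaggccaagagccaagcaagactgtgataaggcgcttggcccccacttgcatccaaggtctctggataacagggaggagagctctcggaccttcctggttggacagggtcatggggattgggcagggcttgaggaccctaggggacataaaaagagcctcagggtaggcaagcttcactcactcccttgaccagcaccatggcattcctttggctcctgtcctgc
Cela1: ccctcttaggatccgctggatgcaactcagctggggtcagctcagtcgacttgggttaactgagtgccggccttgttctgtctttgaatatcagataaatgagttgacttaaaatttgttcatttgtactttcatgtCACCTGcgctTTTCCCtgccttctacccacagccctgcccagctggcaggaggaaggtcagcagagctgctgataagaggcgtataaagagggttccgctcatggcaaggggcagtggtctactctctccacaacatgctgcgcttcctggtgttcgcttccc
Prss1: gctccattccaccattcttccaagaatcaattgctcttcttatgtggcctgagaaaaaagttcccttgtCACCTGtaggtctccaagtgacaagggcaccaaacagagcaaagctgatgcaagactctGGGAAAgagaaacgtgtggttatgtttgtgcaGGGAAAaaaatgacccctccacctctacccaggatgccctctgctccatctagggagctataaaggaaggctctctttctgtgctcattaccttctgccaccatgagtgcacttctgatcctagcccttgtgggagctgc
Amy2a3: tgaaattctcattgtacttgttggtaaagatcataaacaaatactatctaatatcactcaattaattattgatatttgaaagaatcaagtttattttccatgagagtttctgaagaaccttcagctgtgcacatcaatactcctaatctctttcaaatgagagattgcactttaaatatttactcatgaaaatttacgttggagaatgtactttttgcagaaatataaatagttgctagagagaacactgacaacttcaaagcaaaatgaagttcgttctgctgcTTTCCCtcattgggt
CACCTG was found on either strand in 5 of the 8 promoters (Cpb1, Cel, Prss1, Cela1 and Ctrb1), against 18.8% of all 33469 promoters in the table. TTTCCC was found in 7 of the 8, against 25.1%, and both together in 4 of the 8 (Cel, Prss1, Cela1 and Ctrb1), against 4.38%. The other E-box CAGCTG was found in Amy2a3 and Cela1 only, which makes 2 of the 8, against 15.1% of all promoters. In Ctrb1 the E-box starts at base 45 of the window and the TC-box at base 55, and in Cela1 at bases 138 and 148, so the spacing is the same. That joined pattern, CACCTGNNNNTTTCCC, was searched after the spacing had been seen, and it was found in 9 of the 33469 promoters (0.0269%). Besides Cela1 and Ctrb1 it occurs before Prss2, a further trypsinogen gene, and before Arpc2, Polr1d, Arrdc5, Drc12, Fbxl2 and LOC102554637. These matches describe the letters of the windows and show no binding.

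Of the tissue labels, that of maternal liver was checked against a marker. Albumin (Alb), the main secreted protein of hepatocytes, had log2 values of 15.13 to 15.22 in all 9 maternal livers. It was at 14.93 to 14.98 in the embryo livers, so it hardly separates the livers. In embryo bone it was at 13.60 in the control, 10.70 in EMD50, 9.44 in EMD150 and 13.60 in RA. The labels of the embryo tissues were not checked further. The array medians lay between 8.09 and 8.22 over all 22 arrays, and the difference between 3′ and 5′ probe sets of Gapdh, a sign of RNA quality, between 0.586 and 0.796 in the maternal livers. That difference was 2.72 in the EMD50 embryo bone array, which stands apart in this measure. The RA maternal liver of day 20 stands apart in skeletal muscle genes: Acta1, skeletal actin, was at 12.83 there and between 6.32 and 7.41 in the other 8 maternal livers. The mean over 10 muscle genes was 10.27 there against 6.86 to 7.15 elsewhere, and the fitted values that rest on this array are also given without it.

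All values that follow are log2 values of the deposited table, in which a difference of 1 is a 2-fold change, and levels of different probe sets are not compared with each other. In each of the 10 genes the same 3 maternal livers were highest, in the same order: the control of day 12, then EMD50 of day 12, then the control of day 20. The other 6 maternal livers, which are EMD150 and both RA arrays of day 12 and EMD50, EMD150 and RA of day 20, lay within 0.14 to 0.56 log2 units of each other, depending on the gene. Over all probe sets, 26 of 15866 (0.164%) showed that order, and so did 17 of the 1187 (1.43%) that ranged over at least 1 log2 unit. As the genes were picked from these arrays, the count of 10 of 10 is read no further. In bulk tissue, fewer cells of a type and less RNA per cell cannot be told apart, which holds for every value here.

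**Figure D1:**
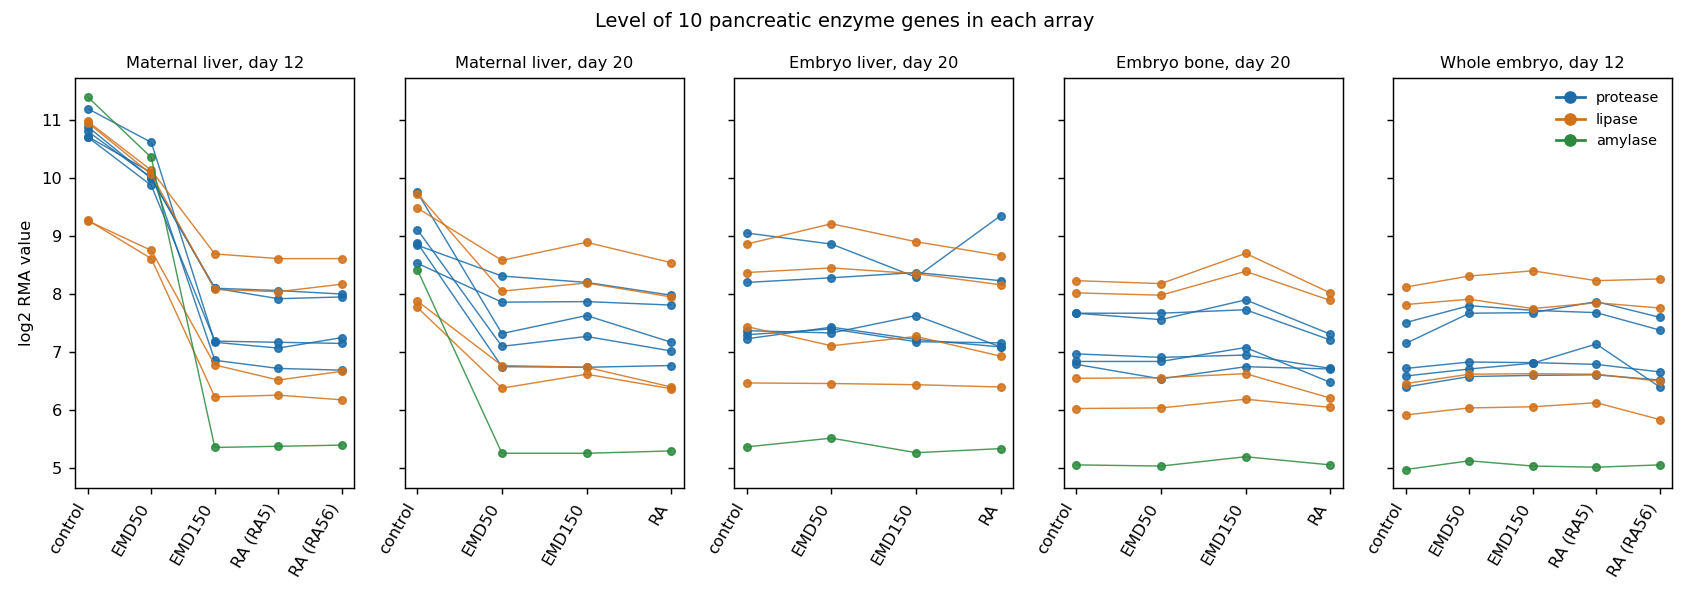
Level of each of the 10 genes (log2 RMA value, vertical axis) in each array, with 1 panel per tissue and day and 1 line per gene, coloured by enzyme class; each point is 1 array. The lines are high in control and EMD50 of maternal liver day 12 and in the control of maternal liver day 20, and show no such peaks in the embryo tissues, where Cela1 in embryo liver (8.29 to 9.35) and Prss1 in whole embryo (6.40 to 7.14) vary most.

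Among the proteases, Prss1 encodes a trypsinogen, the precursor of trypsin. Its level on day 12 was 11.19 in the control, 10.61 in EMD50, 7.17 in EMD150, 7.07 in RA5 and 7.25 in RA56, and on day 20 it was 9.75 in the control, 7.32 in EMD50, 7.63 in EMD150 and 7.17 in RA. The embryo livers lay at 7.37 (control), 7.33 (EMD50), 7.63 (EMD150) and 7.09 (RA), so 6 of the maternal livers lie in or next to that range and the other 3 lie above. The control of day 12 was 1.49-fold above EMD50, 16.2-fold above EMD150, 17.4-fold above RA5 and 15.3-fold above RA56. On day 20 the control was 5.40-fold above EMD50, 4.35-fold above EMD150 and 5.96-fold above RA.

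Ctrb1 encodes chymotrypsinogen B, which trypsin activates. Its level on day 12 was 10.71 in the control, 10.09 in EMD50, 6.86 in EMD150, 6.72 in RA5 and 6.69 in RA56, and on day 20 it was 8.88 in the control, 6.75 in EMD50, 6.74 in EMD150 and 6.77 in RA. The 6 low arrays thus span 0.17 log2 units, and the lowest of the high arrays lies 2.02 above them. In embryo liver Ctrb1 was between 7.16 and 7.40, above those 6 maternal livers.

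Cela1 and Cela2a encode elastases of the chymotrypsin family. Cela1 was at 10.80 in the control, 10 in EMD50, 8.10 in EMD150, 7.92 in RA5 and 7.95 in RA56 on day 12, and at 8.53 in the control, 7.86 in EMD50, 7.87 in EMD150 and 7.81 in RA on day 20. Its gap between the control of day 20 and the next array was 0.43, the narrowest of the 10 genes. Cela1 is also the gene whose embryo livers overlap with the high maternal livers, at 9.05 (control), 8.86 (EMD50), 8.29 (EMD150) and 9.35 (RA), against 7.15 to 7.87 in whole embryo. Cela2a was at 10.70, 9.87 and 9.11 in the 3 high arrays and between 7.02 and 7.27 in the 6 others, and its embryo livers lay between 7.09 and 7.43.

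Cpb1 encodes procarboxypeptidase B, whose product removes basic residues from the ends of peptides. It was at 10.88 in the control of day 12, 9.99 in EMD50 of day 12 and 8.84 in the control of day 20, and between 7.98 and 8.31 in the other 6. The control of day 20 was thus 0.53 above the next array, and the embryo livers, between 8.20 and 8.37, lay at or near the top of the low arrays.

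Of the genes of fat digestion, Pnlip encodes pancreatic triglyceride lipase. Its level on day 12 was 10.95 in the control, 10.06 in EMD50, 8.08 in EMD150, 8.04 in RA5 and 8.17 in RA56, and on day 20 it was 9.73 in the control, 8.05 in EMD50, 8.19 in EMD150 and 7.95 in RA. Clps encodes colipase, the cofactor that anchors this lipase on fat droplets covered by bile salts. It was at 9.26, 8.75 and 7.88 in the high arrays and between 6.40 and 6.78 in the others. The lipase and its cofactor therefore shared the order of arrays, while their gaps between the third and the next array were 1.53 and 1.10.

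Pla2g1b, a secreted phospholipase A2 of the pancreas, was at 9.27 in the control of day 12, 8.61 in EMD50 of day 12 and 7.77 in the control of day 20, and between 6.18 and 6.62 in the other 6. Cel, the lipase that bile salts activate, was at 10.97, 10.13 and 9.48 in those arrays and between 8.54 and 8.89 in the others. It had the smallest range of the 10 genes over the maternal livers, 2.42, and in embryo liver it lay between 8.66 and 9.21.

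Amy2a3 encodes a pancreatic alpha-amylase, and its own probe set had the widest range, 6.13. Its level on day 12 was 11.39 in the control, 10.35 in EMD50, 5.36 in EMD150, 5.38 in RA5 and 5.40 in RA56, and on day 20 it was 8.42 in the control, 5.26 in EMD50, 5.26 in EMD150 and 5.30 in RA. The control of day 12 was 65.3-fold above EMD150 and 2.06-fold above EMD50, and the control of day 20 was 8.91-fold above EMD50. All embryo tissues, between 4.98 and 5.52, lay near the 6 low livers. These folds depend on the lowest level the probe set gives, which cannot be told from no transcript.

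The probe set that Amy2a3 shares with Amy1, the gene of the amylase made in liver and salivary gland, did not follow this order. It was at 13.41 in the control of day 12, 12.97 in EMD50, 12.55 in EMD150, 12.84 in RA5 and 12.56 in RA56, and on day 20 at 12.49 in the control, 12.48 in EMD50, 12.59 in EMD150 and 13.21 in RA. The RA array of day 20 was its second highest, and the control of day 20 its second lowest. The probe set of Amy1 alone lay between 11.30 and 12.24 in the maternal livers, lowest in the control of day 20 and highest in RA of day 20. In embryo liver this probe set gave 7.14 to 9.34, and in bone and whole embryo 5.20 to 5.62. The trypsin, chymotrypsin, elastase and amylase genes form families of similar sequence, and how far their probe sets pick up related transcripts was not tested.

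Set against the control of the same tissue and day, all 10 genes were lower in each of the 7 treated maternal livers. On day 12 the median difference over the 10 genes was -0.81 for EMD50 (from -1.04 to -0.50), -2.95 for EMD150 (from -6.03 to -2.28), -2.96 for RA5 and -2.99 for RA56. In folds, the control exceeded EMD50 by a median of 1.76 (1.42 to 2.06) and EMD150 by 7.74 (4.85 to 65.3). The RA arrays of day 12 differed from each other by 0.01 to 0.19 in these genes in maternal liver, and by 0.03 to 0.75, the widest in Prss1, in whole embryo. These pairs are the only repeats of a treatment within a tissue and day. On day 20 the median was -1.53 for EMD50 (from -3.15 to -0.53), -1.34 for EMD150 (from -3.15 to -0.59) and -1.63 for RA (from -3.12 to -0.72). All treated arrays of a day are set against the same control array, so these medians are not independent, and the median over all probe sets was between -0.041 and 0.013 in the same differences.

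**Figure D2:**
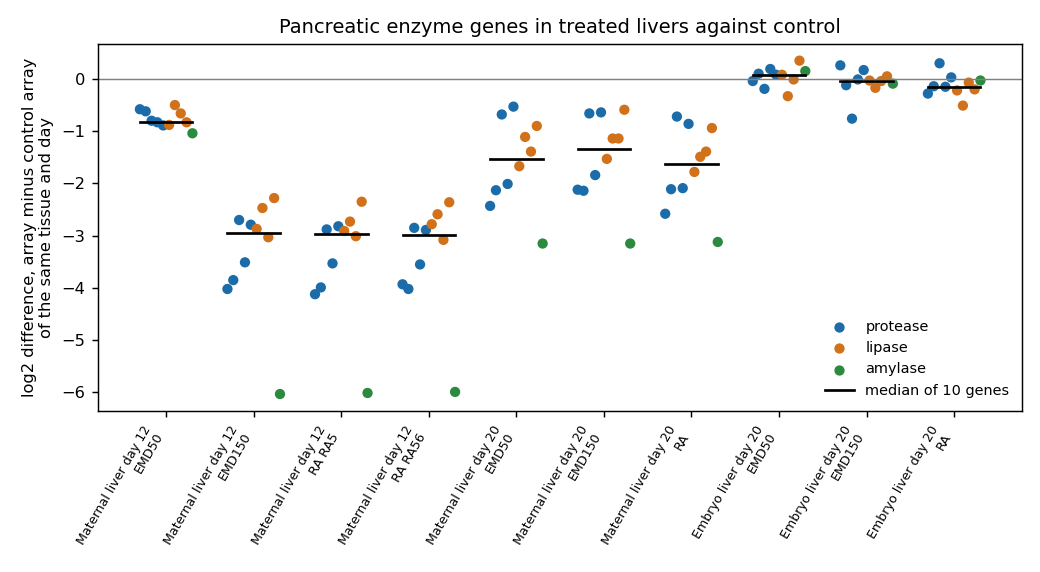
Difference of each treated liver array from the control array of the same tissue and day (log2 units, vertical axis); each point is 1 of the 10 genes, coloured by enzyme class, and the black bar is their median. Medians are -0.81 in EMD50 of day 12, between -2.99 and -2.95 in the other maternal livers of day 12, between -1.63 and -1.34 in those of day 20, and between -0.14 and 0.08 in embryo liver.

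The dose order differed between the days. On day 12 EMD50 was the treated array nearest to the control in each of the 10 genes, and EMD150 lay beside RA. On day 20 the EMD50 and EMD150 arrays lay together, as in Prss1 at -2.43 and -2.12 against the control and in Pnlip at -1.67 and -1.53. Both arrays are among the low ones, with Amy2a3 at 5.26 in each, so their distance from the control depends on its level. Prss1 was at 9.75 in the control of day 20 and at 11.19 in that of day 12. With 1 array per dose and day, an effect of dose and a difference between single samples cannot be told apart. Whether the day changes the response to dose was not tested.

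A model of treatment and day over the 9 maternal livers (limma, 4 residual degrees of freedom) gave median differences from control over the 10 genes of -1.15 for EMD50, -2.14 for EMD150 and -2.38 for RA. None of the 10 genes passed an adjusted p of 0.05, where 0.0% of all 15866 probe sets passed in each direction for EMD50, EMD150 and RA. At an unadjusted p under 0.05 limma gave 511, 550 and 1136 probe sets, which are 3.22%, 3.47% and 7.16% of all, and include 2, 10 and 10 of the genes. The EMD50 median was -0.07 without EMD50 of day 20, -2.04 without EMD50 of day 12, and -0.74 without the control of day 12, where 2 genes lay above 0. For RA it was -2.80 without the array of day 20 that is high in muscle genes, and for EMD150 -1.50 without the array of day 12. Between the days, all 10 genes were lower on day 20, by a median of -0.92 (from -1.91 to -0.67), and 0 of 10 passed, where 3.62% of all probe sets were called lower. Of the 10 genes, 8 had an unadjusted p under 0.05 between the days, as had 22.9% of all probe sets. Without the RA array of day 20 the median was -1.32 and 4 of the 10 were called lower, where 6.59% of all probe sets were, and the median was -0.51 without either EMD50 array. These genes were chosen from the same arrays, so nothing is read from these counts.

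The ratios among the genes were compared across the 3 high arrays. For this, each value was turned to a linear signal, the gene's lowest maternal liver was subtracted, and the rest was expressed as a percent of the same quantity in the control of day 12. In EMD50 of day 12 the 10 genes kept 46.0 to 65.8% (median 52.0%, SD over genes 7.85). The lowest were Cel with 46.0%, Cpb1 with 46.8%, Pnlip with 47.6% and Amy2a3 with 47.9%, and the highest Clps with 65.8%, Prss1 with 65.0% and Ctrb1 with 62.6%. In the control of day 20 they held 9.32 to 34.8% (median 25.0%, SD over genes 9.06). There Cela1 with 9.32%, Amy2a3 with 11.5% and Cpb1 with 12.6% were lowest and Pnlip with 34.8% and Prss1 with 33.0% highest. In the other 6 arrays the medians lay between 0.0% and 2.59%, and no gene exceeded the 6.29% of Cel in EMD150 of day 20.

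The mix of the 10 enzymes was thus closer to that of the control of day 12 in EMD50 of the same day than in the control of day 20. As log2 ratios, the control of day 12 exceeded EMD50 of day 12 by 0.60 to 1.12 (SD over genes 0.21) and the control of day 20 by 1.52 to 3.42 (SD over genes 0.68). For scale, 3191 probe sets with levels from 9.26 to 11.39, the span of the 10 genes in the control of day 12, were taken. They differed with an SD of 0.19 between the first 2 of these arrays and 0.46 between the 2 controls. Between RA5 and RA56 the SD was 0.18, all on values with no floor subtracted. Most of the 10 genes lay below that span in the control of day 20, and all did in RA5 and RA56, so levels are not matched there. Pnlip and Amy2a3 kept 47.6% and 47.9% in EMD50 of day 12, but 34.8% and 11.5% in the control of day 20. The 3191 probe sets also spread more between the 2 controls (0.46) than between control and EMD50 of day 12 (0.19). Whether the mix of these enzymes changed beyond that was not tested, nor was a cause.

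**Figure D3:**
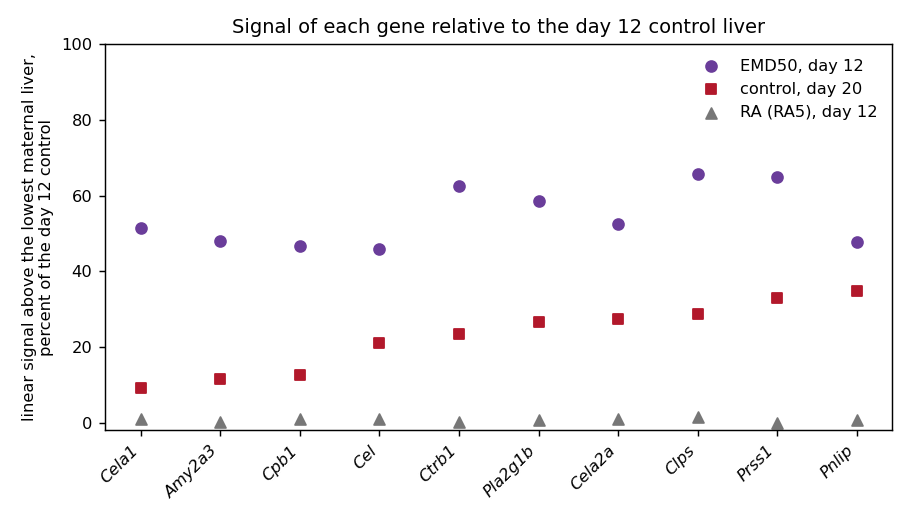
Linear signal above the gene's lowest maternal liver, in percent of the same quantity in the control of day 12 (vertical axis), for each of the 10 genes (horizontal axis, ordered by the control of day 20) in 3 arrays. EMD50 of day 12 lies between 46.0% and 65.8% and the control of day 20 between 9.32% and 34.8%, and RA5 of day 12 lies near 0.

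Other genes of the acinar secretion were sought by the order among all probe sets, and then in lists. Of the 7 genes besides the 10 that had the same order and a range of at least 1 log2 unit, all are acinar or granule genes: Prss3b (a trypsinogen), Ctrc and Ctrl (chymotrypsin family), Pnliprp1 (a lipase-related protein), Sycn (syncollin of the granule), Gp2 (the main granule membrane glycoprotein) and Zg16 (a granule lectin). Prss3b was at 11.39, 10.71 and 8.85 in the control of day 12, EMD50 of day 12 and the control of day 20, and between 7.56 and 7.84 in the others. Ctrc was at 9.41, 8.55 and 7.84 there, against 6.89 to 7.13, and Pnliprp1 at 8.53, 8.09 and 6.69, against 5.86 to 6.08. These 7 genes kept a median of 56.4% (43.8 to 69.0%) in EMD50 of day 12. In the control of day 20 they held 23.6% (10.9 to 34.3%), and both ranges overlap with those of the 10 enzyme genes. As the 7 were chosen for the same order, their higher percent in EMD50 of day 12 was fixed by that choice. Nothing is read from the overlap.

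By list, 2 of 9 measured further proteases and inhibitors had the order (Ctrc and Ctrl), as had 2 of 4 further lipases and amylases (Pnliprp1 and Pnliprp2) and 3 of 11 granule and secretory genes (Sycn, Gp2 and Zg16). Prss2 had the same 3 highest arrays, at 6.79, 6.06 and 6.14, but with the control of day 20 above EMD50 of day 12. The probe set annotated to Cpa1, the gene of procarboxypeptidase A1, lay between 10.20 and 10.79 on day 12 and between 11.88 and 12.95 on day 20, with 6.25 to 6.62 in embryo liver. As it is high in every maternal liver, unlike the 10 genes, whether it measures Cpa1 was not tested. It was the only probe set of its list called in the comparison of days (higher on day 20, as were 2.46% of all probe sets), and its highest array was RA of day 20. None of the 24 genes of these 3 lists was called for EMD50, EMD150 or RA.

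The list of acinar regulators and receptors, which also holds the hormone genes Cck and Sct, did not share the order in any of 9 measured genes. Ptf1a lay between 7.01 and 7.49 and Bhlha15, the Mist1 factor of secretory cells, between 6.96 and 7.50, both highest in EMD150 of day 20. In embryo bone Ptf1a lay between 6.68 and 7.16. Levels this low cannot be told from no transcript, so whether these factors follow the enzymes cannot be read from them. Xbp1, a factor of secretory cells that hepatocytes also use, lay between 11.36 and 12.32, highest in the control of day 20. The list ranged from 0.23 to 0.96 log2 units, while the median range over all genes was 0.454 and 7.79% of genes ranged over at least 1.

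Markers of the other cells of the pancreas and of its neighbours were read in the same arrays. None of 15 islet genes had the order, and their ranges were 0.18 to 0.69: Ins1 lay between 8.06 and 8.42, Ins2 between 8.26 and 8.66 and Gcg between 5.91 and 6.14, and all 3 were highest in EMD150 of day 20. None of 9 duct genes (ranges 0.15 to 0.79), 14 stomach and intestine genes (0.26 to 0.95) or 6 lymphoid genes (0.19 to 0.44) had it either. The mean level of the islet list was 7.04 in the control of day 12, 7.04 in EMD50 of day 12 and 7.10 in the control of day 20, against 6.96 to 7.19 in the others. The duct list was at 7.65, 7.64 and 7.57 there, against 7.51 to 7.74. No marker is at 0 on these log2 values, so absence cannot be read from them.

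Some genes of 2 further lists were highest in the control of day 12, but most genes of those lists were not. Fabp4, the fatty acid binding protein of fat cells, was at 8.24 there and between 5.61 and 6.47 in the other 8 maternal livers, and EMD50 of day 12 was the lowest of all with 5.61. Of 7 fat cell genes, 2 (Fabp4 and Aqp7) were highest in the control of day 12, 2 (Cfd and Lep) in the control of day 20, and Lpl, Plin1 and Lipe in treated arrays of day 20. Over the list the mean was 8.19 in the control of day 12, 7.62 in EMD50 of day 12 and 7.87 in the control of day 20, against 7.53 to 7.95 in the others. Of red cell genes, Hbb (a beta globin) was at 14.00 and Alas2 (the first enzyme of haem synthesis in red cells) at 10.70 in the control of day 12, with at most 13.36 and 9.94 elsewhere, both in EMD50 of day 20. Of 9 genes of the fetal liver and red cell list these 2 were highest in the control of day 12 and the other 7 in treated arrays of day 20. Among them are the red cell genes Ahsp, with 7.64 in the control of day 12 and 8.24 in EMD150 of day 20, and Rhag, with 6.22 and 6.55. Neither list had the order in any gene, and the part of fat or blood in the enzyme values was not tested.

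**Figure D4:**
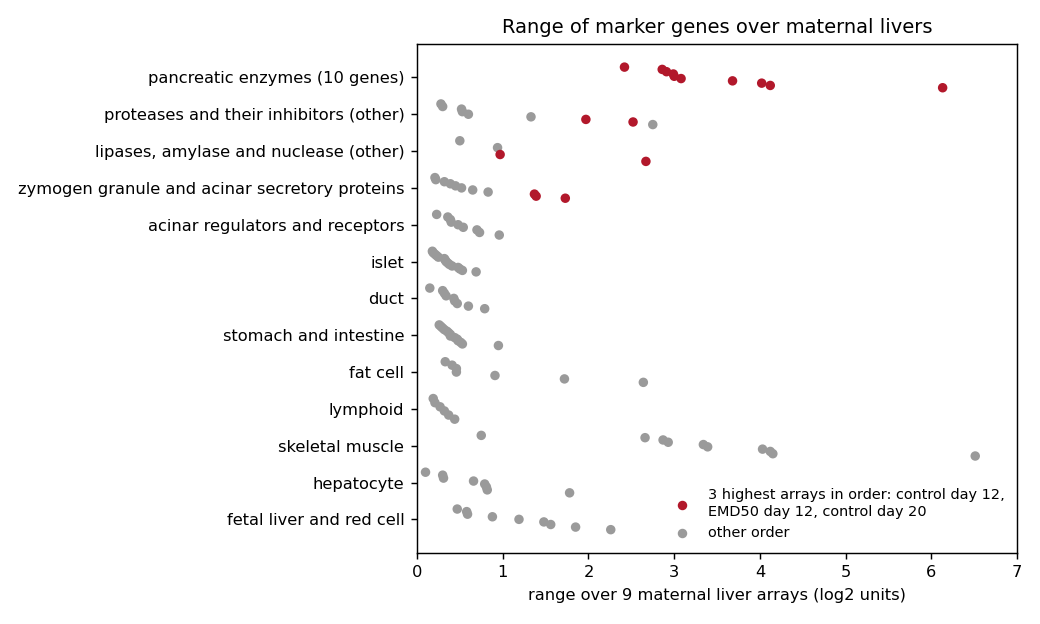
Range over the 9 maternal livers (log2 units, horizontal axis) of each measured gene, by list (vertical axis); red points are genes whose 3 highest arrays are, in order, control of day 12, EMD50 of day 12 and control of day 20. Red points occur in the 10 enzyme genes and 3 further acinar lists; the wide ranges of skeletal muscle genes are highest in the RA array of day 20.

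The genes whose pattern was most like the mean of the 10 over the 9 maternal livers were named by Pearson's r, among 811 genes with a range of at least 1. They were Ctrc (0.988), Prss3b (0.986), Ctrl (0.985), Pnliprp1 (0.983), Sycn (0.981), Zg16 (0.949), Prss2 (0.946) and Gp2 (0.930), then Rnase1l2 (0.716) and Cdc25b (0.686). Over all 22 arrays the search was among 7331 genes with a range of at least 1 over those arrays. The first 10 there were Prss3b (0.987), Ctrc (0.984), Pnliprp1 (0.969), Ctrl (0.968), Prss2 (0.944), Sycn (0.925), Pnliprp2 (0.911), Gp2 (0.893), Zg16 (0.887) and Reg1a (0.725). The correlations rest on 3 high arrays and are descriptions, and all points share the same processing. Rnase1l2, a gene of the pancreatic ribonuclease family, departs from the enzymes: it was at 9.91 in the control of day 12 and 9.21 in EMD50 of day 12, but at 9.67 in RA of day 20, above the control of that day with 8.66, and between 9.92 and 10.36 in embryo liver.

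In the embryo livers of day 20, Cela1 (8.29 to 9.35), Ctrb1 (7.16 to 7.40) and Clps (6.93 to 7.44) lay above their 6 low maternal livers. The ranges of the other 7 genes overlapped with theirs. Those 6 arrays are the ones low in these same genes, and the share of all probe sets that lie so was not counted. Nothing is read from this. The median difference of the 10 genes from the embryo liver control was 0.08 for EMD50, -0.03 for EMD150 and -0.14 for RA, with 4, 7 and 8 of the 10 genes below it. The widest differences were 0.35 in EMD50 (Cel), -0.76 in EMD150 (Cela1) and -0.51 in RA (Clps). In bone the medians were -0.03, 0.15 and -0.23, and in whole embryo 0.15 for EMD50, 0.19 for EMD150, 0.17 for RA5 and -0.01 for RA56. The RA pair of whole embryo did not share a direction, with 10 of the 10 genes above control in RA5 and 5 of 10 in RA56. The other differences are single arrays with no replicate check, and no direction is read from them.

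Across both livers of day 20, with treatment as a block (limma, 3 residual degrees of freedom), the embryo liver differed from the maternal liver by a median of -0.10 over the 10 genes (from -0.69 in Amy2a3 to 0.87 in Cela1). For Cela1 the difference was 0.87 ± 0.17 (SE, n = 4 arrays per tissue), and it was the only 1 of the 10 called higher in embryo liver, where 19.2% of all probe sets were called higher and 18.3% lower. The comparison turns on the controls of day 20: without the maternal control 2 of the 10 genes lay below 0 in place of 7, the median was 0.19 and 3 genes were called, where 29.2% of all probe sets were. Without the maternal RA array the median was -0.22 and Cela1 differed by 0.65. Leaving out the embryo array of the same treatment gave the same values, since a lone array of a treatment adds nothing to this difference. The probe set shared by Amy2a3 and Amy1 was lower in embryo liver by -3.03 ± 0.20 (SE).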

How the data were processed

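RNA of 22 samples was measured on single-colour arrays, 1 per sample, from biotin-labelled cRNA. The authors deposited log2 values from RMA, a method that summarises the probes of a set over arrays, as the submitters' processing notes name it. The version is not stated in the sources used here. Of 15923 rows, 57 array controls were left out. Of the remaining 15866 probe sets, 12783 had 1 gene symbol, 312 several and 2771 none.

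Linear models with moderated variances that follow the mean level came from limma 3.58.1 (R 4.3.3). Tests were two-sided, with Benjamini-Hochberg adjustment over all probe sets and a call at an adjusted p under 0.05. One used the 9 maternal livers with day and treatment, the other the 8 livers of day 20 with tissue and treatment. With 1 array per group, the spread comes from repeats of treatments over days or tissues, and their number limits the precision. The models hold no interaction, so a treatment that differs between days or tissues counts as spread. In the 10 genes the EMD50 arrays differed between the days, with Amy2a3 at 10.35 on day 12 and 5.26 on day 20. Whether that is the treatment or the single sample was not tested. Whether samples are separate animals is not stated, so p-values measure the spread between these samples only. On simulated data the fit recovered 97% of changes of 1 log2 unit put in for RA. That simulation held independent noise and no treatment that differs between days. It therefore does not show what the fit can find in these samples.

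The 10 genes and all lists were chosen with earlier results of these data known. Further named genes are up to 4 per list with the largest range over the maternal livers, and the 10 most correlated with the mean of the 10 genes; marker genes given as examples and genes of a count of 10 or fewer were named after their values were seen. A gene is its single-symbol probe set of highest mean. Promoters came from RefSeq (GRCr8), and Python 3.11.15 with pandas 2.3.3 served for summaries. Alternatives were quantile normalization, centring and scaling, only probe sets above the median level, no trend, other floors and probe sets, and leaving out each array.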

Additional observations from a re-analysis of the deposited data

Results flagged for a closer look

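The results given here are treated arrays whose difference from control has the opposite sign in an embryo tissue and in maternal liver of the same day. Each difference is 1 array against 1 array, and whether the tissues differ was not tested.

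For EMD50 on day 20, the difference in embryo liver and in maternal liver was 0.10 and -2.13 for Ctrb1, 0.19 and -2.01 for Cela2a, and 0.08 and -0.53 for Cpb1. It was 0.08 and -1.67 for Pnlip, 0.35 and -0.90 for Cel, and 0.15 and -3.15 for Amy2a3, and the median over the 10 genes was 0.08 and -1.53.

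For EMD150 on day 20, Prss1 was 0.26 above control in embryo liver and at -2.12 in maternal liver, Cpb1 was at 0.17 and -0.64, and Cel was at 0.05 and -0.59. The median in embryo bone was 0.15, against -1.34 in maternal liver. For RA on day 20, Cela1 was at 0.30 in embryo liver and -0.72 in maternal liver, and Cpb1 at 0.03 and -0.86.

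On day 12, the median in whole embryo and in maternal liver was 0.15 and -0.81 for EMD50, and 0.19 and -2.95 for EMD150. For RA it was 0.17 and -2.96 in RA5, while RA56 had -0.01 and -2.99, so the RA pair of whole embryo did not go 1 way. No group holds 4 or more samples, so single samples were not checked as outliers.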

How the results depend on the processing

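With quantile normalization, centring and scaling, only probe sets above the median level and no intensity trend, limma called 0 probe sets for EMD50, EMD150 and RA, as in the values reported, with 1015 to 1136 for RA at an unadjusted p under 0.05 over all 15866 probe sets and 603 above the median level. Leaving out 1 array gave 0 to 2 calls for EMD50, 0 to 2 for EMD150 and 0 to 4 for RA, above 0 only without a control array. The 965 calls between days became 183 to 1650: 183 and 185 without the control of day 12 or 20, 381 and 385 without an EMD150 array, 427 without either EMD50 array, 598 without RA56 of day 12 and 1650 without RA of day 20. Fewer arrays leave 3 residual degrees of freedom. The 5949 calls between embryo and maternal liver ran from 4451 to 5747 without 1 array. The median percent of the day 12 control stayed between 51.1 and 55.9 in EMD50 of day 12 and between 24.8 and 25.8 in the control of day 20. Of 605 values of the 10 genes under these settings, 577 moved by less than the residual SD and 28 by more. Many of them could not move. The fit without a trend leaves every difference as it is, and the EMD50 differences do not depend on the EMD150 or RA arrays. The residual SD is also a wide measure, at 1.06 for Prss1 in maternal liver, so the count is no measure of robustness. With the mean of all its probe sets, Amy2a3 differed by -2.49 for EMD150 and RA. The probe sets above the median level held only 2 of the 10 genes. No paired analysis was possible because the groups hold 1 array each, or 2 for RA on day 12, and the labels give no replicate numbers shared between the treatments compared; the block of treatment in the liver comparison of day 20 is part of its design. With 1 array per group and no measure of background in the deposited values, low levels near 5 to 8 cannot be told from signal of no transcript.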
